A study of Mus musculus with 30 samples.

Results

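The subject is the chromatin around 10 genes of the marrow stromal niche, namely Cxcl12, Kitl, Csf1, Il7, Lepr, Vcam1, Ebf1, Ebf3, Foxc1 and Prrx1, in mesenchymal stem cells (MSCs) and in NIH3T3 fibroblasts. Accessibility was measured by ATAC-seq, in which a transposase cuts open DNA, as read counts over windows of the mouse genome. A window belonged to a gene when its nearest protein-coding transcription start site (TSS), at a distance of at most 50 kb, was a start of that gene. By this rule 296 of 305931 windows of the 24 h experiment and 319 of 369846 windows of the 4 h experiment were members, and 240 of each set overlapped a window of the other. The number per gene ran from 9 (Lepr) to 54 (Ebf3) at 24 h and from 19 (Il7) to 55 (Ebf3) at 4 h. Every window was assigned by position alone, so a window that lies in a gene's surroundings has not been shown to act on that gene.

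The 21 libraries formed 7 groups of 3. MSCs were labelled as male C57BL/6J cells. The study states that they came from the marrow of several mice, as a primary line made in the laboratory and used throughout. At 24 h they were untreated, treated with CK666, which inhibits branching of actin filaments by the Arp2/3 complex, or treated with cytochalasin D (CytoD), which blocks filament growth. At 4 h untreated and CK666-treated MSCs were measured beside untreated and CK666-treated NIH3T3 cells, a single established line of mouse embryonic fibroblasts. The labels give the NIH3T3 cells the same strain and sex as the MSCs. No label states that replicates were separate cultures, so that p-values measure only the spread between these libraries, which may be technical.

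Stromal cells of the bone marrow hold blood stem cells and progenitors in place and feed them with secreted and membrane-bound factors. CXCL12 retains haematopoietic cells that carry its receptor CXCR4, stem cell factor (Kitl) keeps stem cells alive through the receptor KIT, IL-7 sustains B cell progenitors, and M-CSF (Csf1) drives the macrophage lineage. Cells that make CXCL12 and stem cell factor in adult marrow are commonly marked by the leptin receptor (Lepr) and the adhesion molecule VCAM1, and their identity depends on the transcription factors Ebf1, Ebf3 and Foxc1, while Prrx1 marks limb mesenchyme from which marrow stroma derives.

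Total counts over all windows were 14071301 to 22352180 per library at 24 h. At 4 h they were 29239381 to 34979833 in MSCs and 14496058 to 27866363 in NIH3T3 cells, so that MSC values at 4 h rest on more reads. Rank correlations between replicates were 0.872 to 0.916 at 24 h and 0.88 to 0.952 at 4 h. Promoters of mesenchymal marker genes lay in a window for 7 of 8 genes at 24 h, where Thy1 had none, and for 8 of 8 at 4 h. Among haematopoietic markers Ptprc, Spi1 and Itgam had no promoter window in either experiment, and the sums below are over the 4 listed genes that had one. Of 6 endothelial markers, 2 had a promoter window at 24 h and 3 at 4 h, and Pecam1, Emcn and Tie1 had none. Summed over their promoter windows at 4 h, normalized counts of the mesenchymal list were 4425 to 4755 in MSC controls and 4029 to 4595 in NIH3T3 controls. The haematopoietic list had 337.7 to 408.1 and 331.7 to 353.0 in the same groups, and the endothelial list 177.7 to 210.4 and 84.21 to 155.4. Both cell types are labelled male, but the 47 windows tested on chromosome Y had a median log2 fold change of 3.16 in favour of MSCs.

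Of the 10 genes, 7 carry a window on which the comparisons below turn, and the central 300 bases of each are given here so that the regulatory DNA can be read beside its counts. These 7 windows were chosen after their values were seen. The sequences are from GRCm38, plus strand, read 5′ to 3′, and capitals mark matches on either strand to 8 motifs, which are EBF (CCCNNGGGA), FOX (TGTTTAC), AP-1 (TGANTCA), TEAD (GGAATG), NF-kB (GGGNNTTCC), C/EBP (TTGCNNAA), RUNX (TGTGGT) and the GC box (GGGCGG). The Kitl sequence lies in an intron of the gene at chr10:100065889-100066188 and holds 1 C/EBP and 1 RUNX match. The Il7 sequence lies in an intron at chr3:7609994-7610293 and holds none. The Csf1 sequence is intergenic at chr3:107769673-107769972, upstream of the gene, with 1 TEAD, 1 C/EBP and 1 RUNX match. The Lepr sequence is intergenic at chr4:101715270-101715569, just upstream of the gene, with 1 FOX, 1 AP-1, 2 TEAD and 3 RUNX matches, of which 1 TEAD and 1 RUNX match share bases. The Ebf3 sequence lies in an intron at chr7:137229425-137229724 with 1 AP-1 match. The Foxc1 sequence lies at chr13:31820748-31821047, inside an intron of the neighbouring gene Gmds, with 1 RUNX match. The Prrx1 sequence lies in an intron at chr1:163273198-163273497 with 2 AP-1, 1 C/EBP and 1 RUNX match.
Kitl: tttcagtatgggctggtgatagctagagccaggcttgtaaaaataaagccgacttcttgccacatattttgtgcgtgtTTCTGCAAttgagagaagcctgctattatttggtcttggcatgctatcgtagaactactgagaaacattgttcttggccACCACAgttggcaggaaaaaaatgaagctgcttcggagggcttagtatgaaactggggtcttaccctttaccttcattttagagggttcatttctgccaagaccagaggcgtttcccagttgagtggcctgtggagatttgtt
Il7: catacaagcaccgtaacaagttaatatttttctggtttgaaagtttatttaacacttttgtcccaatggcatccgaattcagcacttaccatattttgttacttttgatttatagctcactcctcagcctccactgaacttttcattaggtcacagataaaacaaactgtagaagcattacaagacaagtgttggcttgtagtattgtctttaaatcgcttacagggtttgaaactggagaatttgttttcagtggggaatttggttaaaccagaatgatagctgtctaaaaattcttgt
Csf1: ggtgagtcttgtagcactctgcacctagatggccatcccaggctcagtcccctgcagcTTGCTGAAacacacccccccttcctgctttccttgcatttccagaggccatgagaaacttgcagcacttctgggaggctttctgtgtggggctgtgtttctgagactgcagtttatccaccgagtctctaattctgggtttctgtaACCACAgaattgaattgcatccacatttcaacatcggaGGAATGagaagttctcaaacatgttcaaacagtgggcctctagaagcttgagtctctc
Lepr: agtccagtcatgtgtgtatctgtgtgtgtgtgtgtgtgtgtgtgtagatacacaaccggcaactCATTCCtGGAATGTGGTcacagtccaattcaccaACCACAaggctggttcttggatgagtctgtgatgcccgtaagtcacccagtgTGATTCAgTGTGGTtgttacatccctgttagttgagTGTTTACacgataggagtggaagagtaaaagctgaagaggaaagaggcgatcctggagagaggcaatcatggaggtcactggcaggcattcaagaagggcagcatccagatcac
Ebf3: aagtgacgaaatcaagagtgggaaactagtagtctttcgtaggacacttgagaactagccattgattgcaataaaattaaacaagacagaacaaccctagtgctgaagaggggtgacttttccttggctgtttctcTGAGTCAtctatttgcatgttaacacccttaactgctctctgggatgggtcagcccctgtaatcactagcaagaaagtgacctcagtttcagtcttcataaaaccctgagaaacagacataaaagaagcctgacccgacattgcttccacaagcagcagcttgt
Foxc1: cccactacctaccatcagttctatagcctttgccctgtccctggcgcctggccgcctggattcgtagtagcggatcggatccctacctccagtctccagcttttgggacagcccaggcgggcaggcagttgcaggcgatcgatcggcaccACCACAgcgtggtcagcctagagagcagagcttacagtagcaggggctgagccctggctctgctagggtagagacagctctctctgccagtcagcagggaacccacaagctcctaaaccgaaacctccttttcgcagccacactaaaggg
Prrx1: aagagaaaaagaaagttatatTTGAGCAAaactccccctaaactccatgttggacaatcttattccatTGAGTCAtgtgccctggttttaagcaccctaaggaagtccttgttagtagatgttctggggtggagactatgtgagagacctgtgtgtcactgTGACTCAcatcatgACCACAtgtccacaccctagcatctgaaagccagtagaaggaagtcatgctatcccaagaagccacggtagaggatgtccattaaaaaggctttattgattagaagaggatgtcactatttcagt

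A match is a string of letters and not a binding site. In the central 300 bases of the windows at 4 h, AP-1 was matched in 22.9% of member windows and 28.7% of all windows, TEAD in 22.9% and 21.3%, C/EBP in 17.2% and 13.4%, RUNX in 27.3% and 27.5%, and FOX in 5.6% and 4.5%. EBF letters were matched in 5.0% of member windows and 5.4% of all windows, NF-kB letters in 4.4% and 4.0%, and the GC box in 9.1% and 7.3%. At 24 h the shares for EBF were 6.4% and 6.2%.

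The first comparison asks how the niche genes differ between untreated MSCs and untreated NIH3T3 cells. Il7, Ebf1 and Kitl had the largest shifts towards MSCs, with median log2 fold changes over their windows of 1.91, 1.36 and 1.04, and Lepr had the largest shift towards NIH3T3 cells, at -1.55. Relative to the median of windows 50 kb to 5 Mb away, Kitl came to 0.59, below Foxc1 (0.75) and Cxcl12 (0.69), and Lepr to -0.06, while Il7 (2.01) and Ebf1 (1.5) stayed highest. In all, 90 of 318 member windows tested were called higher in MSCs (28.3%) and 58 lower (18.2%), by edgeR's quasi-likelihood test with limits of 0.01 on the adjusted p and 1 on the size of the log2 fold change. The 4 h windows are 1 set for both cell types, so a window can be in the set through the cell type where it is open. The split of calls within a gene therefore depends in part on which windows the set holds. In such bulk libraries, a larger share of cells with an open window and a wider opening per cell cannot be told apart. Over all windows tested, 18.3% were called higher and 16.2% lower. The median log2 fold change was 0.29 over the members and -0.02 over all windows. Scaling by total counts moved the members' split to 72 higher and 73 lower and set the median over all windows at -0.25, removal of a GC trend gave 71 and 68, and taking each fold change relative to the median of windows 50 kb to 5 Mb from the gene gave 92 and 35. Over all 368794 windows tested, total counts gave 52993 higher and 76762 lower, and removal of the GC trend 53806 and 75462. Calls relative to the surroundings were counted for the members only. They set the fold limit on the relative value and keep the adjusted p of the test against 0, so no window was tested against its surroundings.

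**Figure D1:**
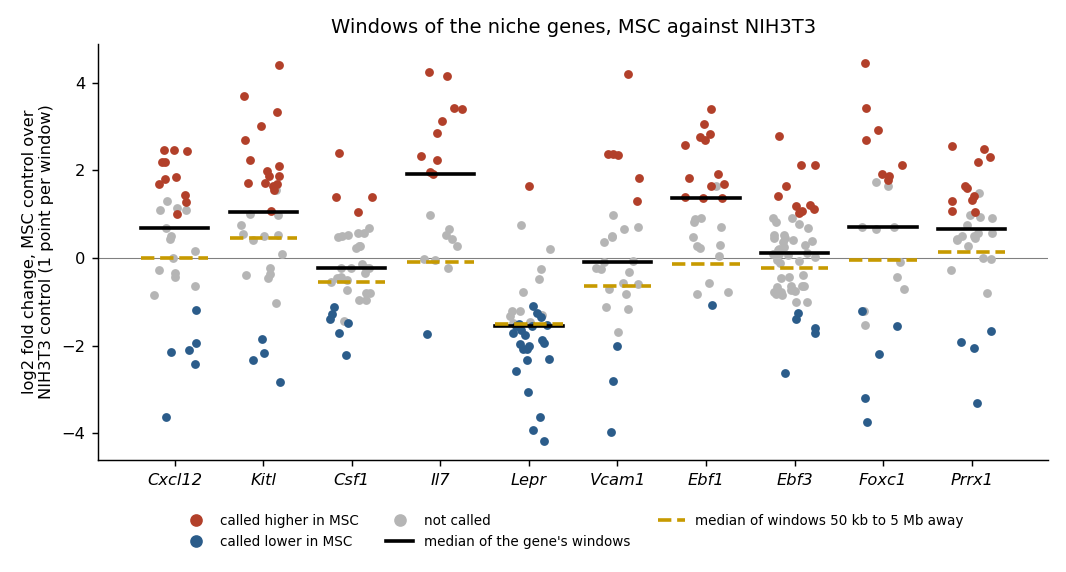
Each point is 1 window of a niche gene, placed by its log2 fold change between MSC and NIH3T3 controls at 4 h (vertical axis), with genes along the horizontal axis, called windows in colour, the gene's median as a black line and the median of windows 50 kb to 5 Mb away as a dashed line. Il7 and Ebf1 sit above their dashed lines by medians of 2.01 and 1.5, while the median of Lepr (-1.55) lies beside that of its surroundings (-1.50).

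Among the cytokine genes, Cxcl12 had 11 windows called higher in MSCs and 6 lower of 31 tested. Its promoter window, normalized to the mean library size of the 4 h libraries, had counts of 637.5, 643.7 and 585.6 in MSC controls and 182.5, 178.0 and 159.8 in NIH3T3 controls. All 3 MSC libraries lay above all 3 NIH3T3 libraries, and the log2 fold change was 1.84 (SE 0.119, adjusted p = 3.93e-24). The window over the end of the gene and its 3′ UTR (chr6:117181269-117183525) had 198.0, 175.2 and 161.8 against 24.83, 46.88 and 22.97, a log2 fold change of 2.47. The direction was opposite 20206 bp upstream of the start (chr6:117147730-117148329), where counts were 6.091, 16.02 and 12.14 in MSCs and 147.9, 126.8 and 156.0 in NIH3T3 cells (log2 fold change -3.63, SE 0.267, adjusted p = 4.93e-21). The called windows over the gene itself were higher in MSCs, and flanking windows were called in both directions.

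Kitl had 16 windows called higher in MSCs and 4 lower of 34 tested. The difference at its promoter was small, with 1302, 1322 and 1381 counts in MSC controls and 972.8, 821.3 and 946.6 in NIH3T3 controls (log2 fold change 0.55, SE 0.099, adjusted p = 2.23e-06), and it did not reach the fold limit. Larger differences lay in introns, as in 2 windows. The intronic window whose sequence is printed above (chr10:100065618-100066461), 49702 bp downstream of the start, had 267.0, 226.2 and 273.1 counts in MSCs and 15.12, 10.42 and 10.53 in NIH3T3 cells (log2 fold change 4.41, SE 0.214, adjusted p = 1.26e-31). Another intronic window, 4457 bp downstream of the start, had 164.5, 155.2 and 183.1 against 19.43, 10.42 and 9.571 (log2 fold change 3.69). Both were near closed in the fibroblast line and open in every MSC library.

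Il7 had 10 windows called higher in MSCs and 1 lower of 19 tested. Its promoter window had 1125, 1113 and 1131 counts in MSC controls and 220.2, 208.4 and 241.2 in NIH3T3 controls (log2 fold change 2.33, SE 0.114, adjusted p = 2.13e-31). In the printed intronic window (chr3:7609865-7610423) the counts were 85.27, 120.1 and 129.5 against 8.637, 6.078 and 2.871, a log2 fold change of 4.24. The most accessible window of Il7 away from a start, also intronic, had 183.7, 181.2 and 199.3 against 17.27, 25.18 and 10.53 (log2 fold change 3.39). The window of Il7 that was called lower, at -1.74, was also intronic (chr3:7606422-7606989), between windows that were called higher.

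Csf1 was divided, with 4 windows called higher in MSCs and 6 lower of 35 tested and a median log2 fold change of -0.24. Its promoter lies in an open domain of 11728 bp counted as a single window, which had 1362, 1366 and 1155 counts in MSCs and 885.3, 919.4 and 895.9 in NIH3T3 cells (log2 fold change 0.52, SE 0.099, adjusted p = 5.38e-06). A window 17679 bp downstream of the start had 72.08, 72.08 and 48.55 in MSCs and 2.159, 14.76 and 18.19 in NIH3T3 cells (log2 fold change 2.4). A window 16796 bp upstream (chr3:107777265-107778345) had 23.35, 18.02 and 18.21 in MSCs and 100.4, 103.3 and 74.65 in NIH3T3 cells (log2 fold change -2.22, SE 0.251, adjusted p = 2.09e-12). A window farther upstream, at 35974 bp, was called higher in MSCs, so that upstream windows of Csf1 had calls in both directions. With the surrounding median of -0.55 subtracted and the adjusted p of the test against 0 kept, 7 windows of Csf1 passed the limits as higher and 2 as lower.

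Lepr, the receptor gene that marks adult marrow stroma in vivo, was the locus among the 10 with most of its windows called lower in MSCs, at 23 lower and 1 higher of 35 tested. Of these windows, 17 had too few counts to be tested in the 4 h fit of MSCs alone, and 0 in that of NIH3T3 cells. For Il7 the numbers were 0 and 7 of 19 windows. The Lepr split thus rests in part on windows that are in the set through NIH3T3 cells. Its promoter window was weakly open in both cell types, at 14.21, 15.02 and 15.17 normalized counts in MSCs and 43.19, 50.36 and 36.37 in NIH3T3 cells (log2 fold change -1.54, SE 0.321, adjusted p = 3.13e-05). The window printed above (chr4:101715145-101715696), 1708 bp upstream of the start, had 38.58, 30.03 and 34.39 in MSCs and 489.1, 392.4 and 411.6 in NIH3T3 cells, a log2 fold change of -3.64 (SE 0.169, adjusted p = 7.19e-33). An intronic window 45183 bp downstream of the start had 4.061, 13.01 and 4.046 against 123.1, 120.7 and 146.4 (log2 fold change -4.18). In contrast, the intronic window at chr4:101723884-101724504 was higher in MSCs, with 132.0, 149.2 and 131.5 against 46.42, 25.18 and 61.25 (log2 fold change 1.65). The chromosome moved with these values. Windows 50 kb to 5 Mb from Lepr had a median log2 fold change of -1.50, and all windows of chromosome 4 a median of -1.02. With the surrounding median subtracted and the adjusted p of the test against 0 kept, 5 Lepr windows passed the limits as lower and 1 as higher. The 2 windows nearest upstream of the start stayed among the lower ones, at -2.15 and -2.42. The part of this chromosome-wide difference in the Lepr values was not tested.

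Vcam1, which encodes an adhesion molecule for integrin-bearing blood cells, had 6 windows called higher in MSCs and 3 lower of 27 tested. Its promoter window differed little, with 528.9, 433.5 and 436.9 counts in MSCs and 543.1, 590.4 and 599.2 in NIH3T3 cells (log2 fold change -0.31, SE 0.114, adjusted p = 0.0185). A distal window 47618 bp downstream of the start, past the end of the gene, was far more open in MSCs, with 173.6, 143.1 and 148.7 in MSCs and 8.637, 6.946 and 9.571 in NIH3T3 cells (log2 fold change 4.2, SE 0.262, adjusted p = 5.88e-25).

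Among the transcription factor genes, Ebf1 had 13 windows called higher in MSCs and 1 lower of 27 tested. Its promoter window was similar, at 580.7, 678.7 and 651.4 counts in MSCs and 586.2, 454.9 and 524.5 in NIH3T3 cells (log2 fold change 0.29, adjusted p = 0.0211), and 1 NIH3T3 library lay above the lowest MSC library. Of the 13 higher windows of Ebf1, 8 were intronic, 1 held a coding exon, and 4 were intergenic and upstream of the start. Among the intronic ones, counts were 84.26, 92.1 and 130.5 against 6.478, 14.76 and 6.7 at 40575 bp downstream of the start (log2 fold change 3.4, SE 0.297, adjusted p = 3.07e-17). The most accessible Ebf1 window away from a start had 230.4, 201.2 and 217.5 in MSCs and 28.07, 27.78 and 35.41 in NIH3T3 cells (log2 fold change 2.82).

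Ebf3, the paralogue that keeps the marrow cavity open to haematopoiesis, had 10 windows called higher in MSCs and 5 lower of 55, with a median log2 fold change of 0.12. Its promoter window had 1191, 1100 and 1132 counts in MSCs and 969.5, 705.9 and 828.9 in NIH3T3 cells (log2 fold change 0.45, SE 0.101, adjusted p = 9.18e-05). An intronic window (chr7:137268360-137268923) was higher in MSCs, at 76.14, 68.07 and 108.2 against 11.88, 14.76 and 9.571 (log2 fold change 2.78). Another intronic window (chr7:137283706-137284243) was lower, at 93.39, 107.1 and 84.96 against 639.1, 538.3 and 584.8 (log2 fold change -2.62, SE 0.138, adjusted p = 1.67e-29). Intronic windows of Ebf3 were thus called in both directions.

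Foxc1, a forkhead factor needed to maintain the niche, had 8 windows called higher in MSCs and 5 lower of 23. Its promoter did not differ beyond the spread, with 298.5, 408.4 and 327.7 counts against 362.8, 399.4 and 338.8 (log2 fold change -0.09, SE 0.121, adjusted p = 0.544). The largest log2 fold change among its windows, 4.45, was in the window printed above (chr13:31820635-31821161), with 100.5, 133.1 and 87.99 counts in MSCs and 2.159, 5.209 and 6.7 in NIH3T3 cells. It lies in the neighbouring gene Gmds, although the nearest start is that of Foxc1. A window 4986 bp upstream of Foxc1 went the other way, with 4.061, 7.007 and 2.023 against 61.54, 60.78 and 57.43 (log2 fold change -3.74).

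Prrx1, a homeobox gene of limb mesenchyme, had 11 windows called higher in MSCs and 4 lower of 32. Its promoter was less accessible in MSCs, at 116.7, 138.1 and 125.4 counts against 212.7, 239.6 and 214.4 (log2 fold change -0.81, SE 0.151, adjusted p = 3.96e-06), below the fold limit. Its most accessible intronic window in MSCs (chr1:163285105-163285656) had 423.3, 441.5 and 449.1 against 108.0, 91.16 and 90.93. A window 24768 bp upstream of the start was lower, at 10.15, 18.02 and 16.18 against 133.9, 162.4 and 148.4 (log2 fold change -3.32). Of the 10 promoter windows only those of Cxcl12, Il7 and Lepr were called, and 9 of 10 had an unadjusted p under 0.05, beside 214478 of 368794 windows in all.

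Summing all windows of a gene gives its level of open chromatin per library, as CPM, that is, counts scaled by library size, after TMM scaling. In MSC controls the Il7 windows summed to 72.17, 71.61 and 76.73 against 17.08, 16.21 and 18.47 in NIH3T3 controls. Lepr had 20.64, 20.1 and 21.95 against 66.58, 63.24 and 68.43. The MSC libraries lay above all NIH3T3 libraries for 6 genes, namely Cxcl12, Kitl, Ebf1, Ebf3, Prrx1 and Il7, and below them for Lepr. The groups overlapped for Foxc1, Vcam1 and Csf1. With total-count scaling Ebf3 overlapped too, while Vcam1 and Csf1 joined Lepr below. How many loci of other genes separate in this way was not counted. Of all windows, 53.0% differed between these cell types at an adjusted p under 0.05 by edgeR's test, with no fold limit.

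**Figure D2:**
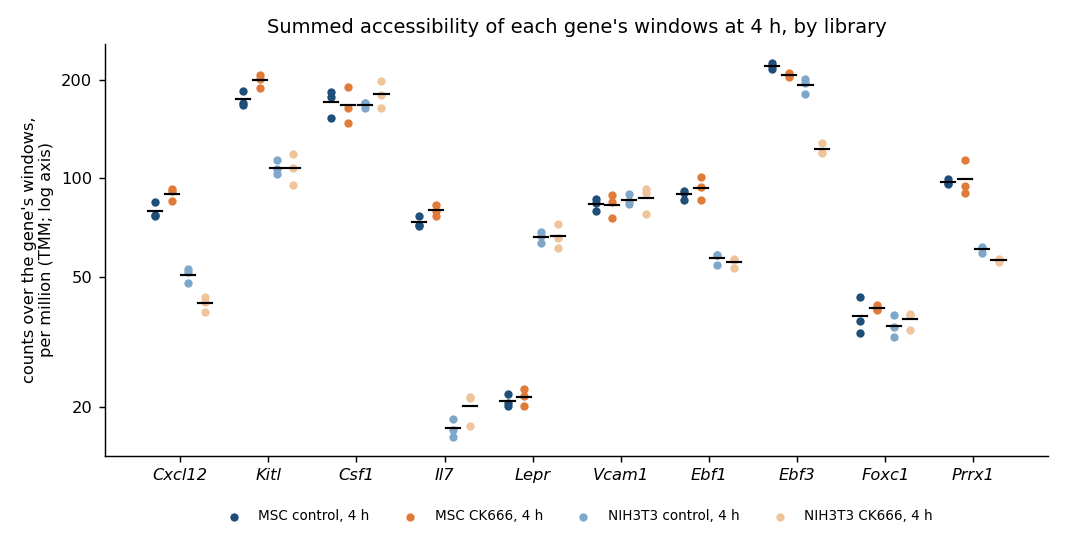
Points are single libraries, and the vertical log axis gives CPM (TMM scaled) summed over all windows of a gene at 4 h, for MSC and NIH3T3 cells without and with CK666. The MSC and NIH3T3 controls stand furthest apart for Il7 and Lepr, in opposite directions, and in NIH3T3 cells the libraries with CK666 fall clear below their controls for Ebf3 (119.6 to 128.4 against 180.6 to 201.4), Cxcl12 (39.1 to 43.53 against 47.91 to 52.85) and Prrx1 (55.55 to 56.61 against 58.92 to 61.75). With total-count scaling, not shown, Ebf3 stayed below its NIH3T3 controls (139.6 to 145.7 against 201.9 to 207.0). Cxcl12 (43.18 to 52.91 against 50.03 to 57.81) and Prrx1 (61.34 to 68.57 against 60.57 to 68.65) then overlapped theirs.

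Divided by the summed length of their windows, the loci of MSC controls ranked from Kitl (5.936 ± 0.3268 CPM per kb, SD, n = 3), Il7 (5.789 ± 0.2211) and Ebf3 (5.457 ± 0.1184) down to Foxc1 (2.109 ± 0.2761) and Lepr (0.7519 ± 0.03428). The values of Kitl and Il7 differed by less than their SDs, as did those of Ebf1 (4.406 ± 0.1373) and Csf1 (4.279 ± 0.4033). Prrx1 (3.585 ± 0.06406) and Vcam1 (3.78 ± 0.1616) stood close together. In NIH3T3 controls the order was led by Ebf3 (4.759 ± 0.2635) and Csf1 (4.183 ± 0.09188), Il7 was lowest (1.359 ± 0.08979), and Lepr had 2.378 ± 0.09482.

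The 24 h experiment asks what CK666 and CytoD do to these loci in MSCs. With CK666, 12 of 293 member windows tested were called higher (4.1%) and 7 lower (2.39%), against 1.88% and 1.06% of all windows. The lower ones included the body and 3′ end of Cxcl12 and an intron of Il7, and the higher ones included elements of Csf1, Ebf1, Ebf3 and Prrx1. The median log2 fold change was 0.05 over members and 0.02 over all windows. None of the 9 promoter windows (Lepr had none at 24 h) was called by edgeR or by DESeq2, and 1 had an unadjusted p under 0.05, beside 62273 of 300323 windows in all. Mesenchymal marker promoters moved with treatment, with sums of 2473 to 2827 in controls, 2126 to 2307 with CK666 and 2089 to 2229 with CytoD. The haematopoietic sums were 164.9 to 219.8, 179.8 to 207.4 and 224.7 to 283.7, and the endothelial sums 64.35 to 76.62, 72.21 to 91.4 and 49.38 to 93.51. The part of these shifts in the values of the niche genes was not tested.

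Cxcl12 had 3 windows with a drop past the fold limit. The 5955 bp window over its 3′ end (chr6:117179934-117185888) had 467.5, 498.6 and 623.8 normalized counts in controls, 291.2, 213.2 and 237.8 with CK666 and 777.5, 745.7 and 720.5 with CytoD. The 3 groups did not overlap, with CK666 lowest and CytoD highest. The log2 fold change was -1.11 with CK666 (SE 0.101, adjusted p = 8.84e-15) and 0.49 with CytoD, and CK666 against CytoD gave -1.6 (SE 0.101, adjusted p = 1e-22). A coding-exon window next to it went from 159.7, 135.5 and 156.4 to 73.04, 60.03 and 49.14 with CK666 (log2 fold change -1.3) and was 239.2, 213.7 and 172.8 with CytoD. By contrast, a window 38705 bp downstream of the start rose with CK666 from 48.05, 47.73 and 51.83 to 120.8, 98.32 and 144.5 (log2 fold change 1.29, SE 0.202, adjusted p = 7.37e-07). The promoter stayed level, with means of 543.3 in controls, 535.1 with CK666 and 505.3 with CytoD. Summed over all its windows, Cxcl12 had 101.6 to 115.8 CPM in controls, 86.15 to 94.56 with CK666 and 116.5 to 124.9 with CytoD, and these ranges did not overlap.

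In the intron of Il7 that is printed above, the 24 h window (chr3:7609859-7610961) had 140.3, 193.5 and 229.7 counts in controls, 75.85, 78.31 and 66.83 with CK666 and 283.8, 309.7 and 291.7 with CytoD. As at the end of Cxcl12, CK666 libraries were the lowest and CytoD libraries the highest, without overlap. The log2 fold change was -1.36 with CK666 (SE 0.151, adjusted p = 1.86e-11), 0.63 with CytoD, and -2.0 between the treatments (SE 0.147, adjusted p = 3.35e-19). Another intronic Il7 window was near the fold limit with CK666, with a log2 fold change of 1.01 that was lost in 7 of 14 alternative fits. The Il7 promoter had lower counts with both agents, on average 601.6 ± 93.7 in controls, 467.5 ± 39.0 with CK666 and 435.4 ± 89.88 with CytoD (log2 fold changes -0.37 and -0.47, adjusted p = 0.00725 and 0.000605), within the fold limit.

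Csf1 had 2 distal windows called higher with CK666 and 1 lower. The printed upstream window (at 24 h chr3:107769551-107770226) had 18.18, 11.93 and 36.64 counts in controls, 88.96, 100.1 and 96.31 with CK666 and 39.45, 48.58 and 44.8 with CytoD. Its log2 fold change with CK666 was 2.08 (SE 0.264, adjusted p = 2.23e-09), the only 1 among the members beyond 2 at 24 h with that agent. With CytoD it was 0.98, short of the call, although each CytoD library was above each control, and the treatments differed by 1.1 (adjusted p = 0.000576). The window 17720 bp downstream of the start rose with CK666 from 25.97, 24.72 and 31.28 to 118.0, 75.7 and 126.8, and had 21.63, 19.43 and 20.12 with CytoD (CK666 against CytoD 2.38, adjusted p = 2.61e-11). Farther upstream, 40740 bp from the start, counts of 36.36, 31.54 and 59.88 in controls became 14.98, 13.92 and 15.72 with CK666 and 14.0, 7.286 and 24.69 with CytoD (log2 fold changes -1.52 and -1.43). These 2 calls were lost in 2 and 5 of 14 alternative fits, among them the fits without control replicate 3, with ranges of -1.73 to -1.2 and -2.02 to -1.11.

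Kitl had 2 windows called with each agent at 24 h. A window 12792 bp upstream fell with both agents, from 59.74, 76.71 and 56.3 to 28.09, 12.18 and 41.28 with CK666 and 41.99, 19.43 and 24.69 with CytoD (log2 fold changes -1.26 and -1.18). Without control replicate 2 both calls were lost, with values in the alternative fits of -1.71 to -0.91 and -1.55 to -1.01. Another, 25352 bp upstream, rose with CytoD from 22.08, 33.24 and 38.43 to 75.08, 81.37 and 81.38 (log2 fold change 1.31, adjusted p = 8.78e-05).

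At the transcription factor genes, most windows called with CK666 were intronic and higher. Ebf3 rose 37690 bp downstream of its start, in the printed intron (chr7:137229302-137229848), from 68.83, 79.27 and 73.28 to 210.7, 190.5 and 190.7 (log2 fold change 1.41, SE 0.165, adjusted p = 1.29e-10), with 96.71, 151.8 and 90.52 under CytoD. Summed over all its windows, Ebf3 had 225.9 to 232.4 CPM in controls, 212.4 to 216.0 with CK666 and 217.1 to 222.4 with CytoD. With total-count scaling the CytoD libraries (225.6 to 230.0) lay within the range of the controls (217.2 to 231.4). The CK666 libraries (208.6 to 213.6) stayed below. Ebf1 rose 9244 bp downstream of its start, from 22.08, 14.49 and 14.3 to 59.93, 47.85 and 51.1 (log2 fold change 1.67, adjusted p = 0.000244), with 16.54, 3.643 and 23.77 under CytoD and a difference between the agents of 1.79. In Prrx1, 4 intronic windows were called higher and 1 lower with CK666. The one 6849 bp downstream of the start had 62.34, 63.07 and 100.1 counts in controls, 175.1, 156.6 and 241.8 with CK666 and 62.35, 70.44 and 71.32 with CytoD (log2 fold change with CK666 1.33, SE 0.175, adjusted p = 6.68e-09). The Prrx1 window that was lower (chr1:163290522-163291735) went from 98.7, 122.7 and 140.3 to 58.06, 44.37 and 37.34 (log2 fold change -1.38), so that neighbouring intronic elements changed in opposite directions.

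With CytoD, 2 of 293 member windows were called higher (0.683%) and 8 lower (2.73%), against 0.98% and 1.4% of all windows. The lower ones were 3 windows of Prrx1, of which 2 were intronic, 2 of Ebf1, and 1 each of Ebf3, Csf1 and Kitl. Of these, 1 of Prrx1 (-1.2) and both of Ebf1 (-1.58 and -1.15) were lost in 8 or 9 of 14 alternative fits. The printed Prrx1 window (chr1:163273080-163273617) had 119.5, 114.2 and 149.2 counts in controls, 71.16, 77.44 and 91.4 with CK666 and 33.08, 19.43 and 36.57 with CytoD. CytoD libraries were the lowest and control libraries the highest, with CK666 between (log2 fold change with CytoD -2.08, SE 0.223, adjusted p = 1.07e-11, and with CK666 -0.68, adjusted p = 0.0102). An Ebf3 intronic window (chr7:137304502-137305567) had 162.3, 133.8 and 154.6 in controls, 72.53, 51.01 and 55.78 with CytoD (log2 fold change -1.33, SE 0.186, adjusted p = 5.12e-08) and 72.1, 74.83 and 80.59 with CK666 (-0.98, short of the fold limit). Lepr rose with CytoD 8931 bp upstream of its start, from 36.36, 23.87 and 35.75 to 80.17, 65.58 and 85.95 (log2 fold change 1.29, adjusted p = 0.000222), and this call was lost without control replicate 2, where the value was 1.08. The Ebf1 promoter had 273.9 ± 17.34 counts in controls, 315.9 ± 15.4 with CK666 and 192.8 ± 3.629 with CytoD, and the treatments differed there by 0.71 (adjusted p = 1.46e-06). The count of 10 fell to 6 by DESeq2 and to 5 without CytoD replicate 2, and with total-count scaling it was 3 higher and 4 lower. Over all 300323 windows tested, that scaling gave 3823 higher and 2961 lower.

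**Figure D3:**
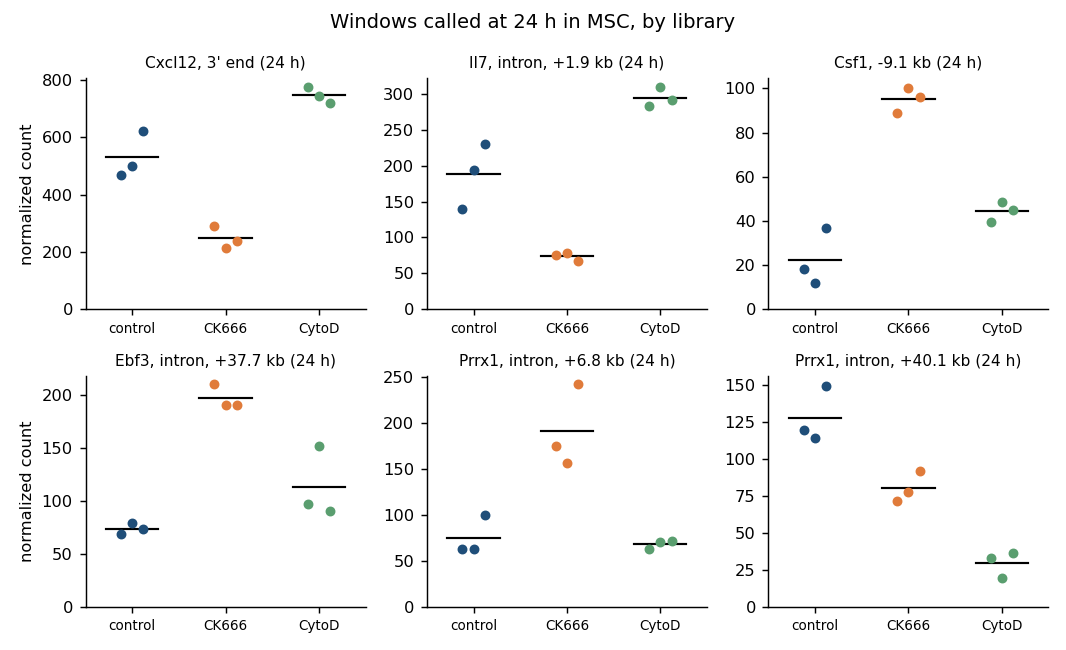
Normalized counts (vertical axis, from 0) of 6 windows called at 24 h in MSCs, with 1 point per library and a line at the mean of the 3 libraries of each group (control, CK666, CytoD). The CK666 libraries lie below and the CytoD libraries above the controls in Cxcl12 and Il7, CK666 lies highest in Csf1, Ebf3 and the first Prrx1 window, and CytoD lies lowest in the last.

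Compared directly, CK666 and CytoD differed in 15 of 293 member windows, 11 higher with CK666 (3.75%) and 4 lower (1.37%), against 2.14% and 1.14% of all windows. The lower ones were in Cxcl12, Il7 and Lepr, where the upstream window gave -1.69 (adjusted p = 1.26e-06). Those higher with CK666 included the downstream Csf1 window, the Ebf1 windows 9244 bp downstream and 35474 bp upstream of the start, and a coding-exon window of Vcam1, where counts were 146.8, 105.7 and 121.5 in controls, 182.6, 187.1 and 189.7 with CK666 and 82.71, 112.9 and 73.15 with CytoD (difference 1.07, adjusted p = 2.84e-07, at 0.93 without CytoD replicate 3 and no longer called). Both treatments share the same 3 control libraries, and each treatment's own values are therefore set side by side here. Neither agent gave a call by edgeR or DESeq2 in the 17 windows of Foxc1, of which 1 had an unadjusted p under 0.05 with each agent. In the 24 windows tested of Vcam1 there was likewise no call against controls by either tool, with 6 windows under that p for CK666 and 8 for CytoD. Over all 300323 windows tested, 62273 were under that p for CK666 and 67771 for CytoD.

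The 4 h experiment asks whether CK666 acts on these loci early and in both cell types. In MSCs, 5 of 281 member windows tested were called higher (1.78%) and 2 lower (0.712%), against 0.59% and 0.427% of all windows, and the medians over members and over all windows were 0.03 and 0.001. The higher ones were in Kitl, Vcam1, Csf1 and Ebf1, and the lower ones in Csf1 and Prrx1. No promoter window was called by edgeR or DESeq2 in MSCs, where 1 of 10 had an unadjusted p under 0.05, beside 58588 of 306819 windows in all. With CK666 at 4 h the mesenchymal marker sums were 4091 to 4666 in MSCs and 3374 to 4330 in NIH3T3 cells, which overlapped their controls, and the haematopoietic sums were 320.2 to 396.8 and 337.6 to 450.2.

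The printed Kitl intron window rose with CK666 in MSCs from 267.0, 226.2 and 273.1 to 624.0, 622.3 and 533.9 counts (log2 fold change 1.21, SE 0.09, adjusted p = 5.77e-19). In NIH3T3 cells, where it was nearly closed, it went from 15.12, 10.42 and 10.53 to 13.81, 31.85 and 36.03 (log2 fold change 1.24, adjusted p = 0.042). The Kitl window with the largest log2 fold change between MSCs and NIH3T3 cells was thus also called higher with CK666 in MSCs. By edgeR's test, the difference between the CK666 effects in the 2 cell types was -0.05 there (adjusted p = 0.96) and was not called. At 24 h the overlapping window had log2 fold changes of 0.34 with CK666 and 0.53 with CytoD, which were not called. Summed over all its windows at 4 h, Kitl had 189.0 to 206.9 CPM with CK666 and 167.6 to 185.3 in MSC controls. Total-count scaling gave 177.4 to 185.1 against 150.8 to 169.5, also without overlap.

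Vcam1 rose 32303 bp upstream of its start, from 42.64, 46.05 and 37.42 to 126.1, 144.4 and 116.8 in MSCs (log2 fold change 1.61, SE 0.19, adjusted p = 3.55e-10). NIH3T3 libraries were low throughout, at 6.478, 10.42 and 6.7 in controls and 15.35, 14.28 and 8.007 with CK666. The difference between the CK666 effects in the 2 cell types was 1.01 by edgeR's test (adjusted p = 0.264) and was not called. At 24 h the log2 fold change with CK666 in the overlapping window was 0.09.

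Csf1 rose in the printed upstream window in both cell types. MSC libraries went from 28.42, 19.02 and 11.13 to 52.56, 67.55 and 47.64 (log2 fold change 1.51, SE 0.285, adjusted p = 7.14e-05). NIH3T3 libraries went from 61.54, 32.99 and 21.06 to 119.7, 125.2 and 139.1 (log2 fold change 1.78, SE 0.228, adjusted p = 1.42e-08). Treated and control libraries did not overlap in either cell type, and the difference between the cell types was -0.24 and not called. With the call at 24 h, this was the window of Csf1 that was higher with CK666 in each experiment. Another Csf1 window, 15366 bp downstream of the start, fell in MSCs from 42.64, 37.04 and 23.26 to 9.556, 11.82 and 7.191 (log2 fold change -1.84, SE 0.371, adjusted p = 0.000238), and had 17.27, 12.16 and 9.571 in NIH3T3 controls and 29.16, 15.38 and 17.01 with CK666. DESeq2 called only the upstream window of Csf1 in MSCs and not this one.

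Among the transcription factors in MSCs at 4 h, Prrx1 fell 5754 bp upstream of its start from 56.85, 57.06 and 66.75 to 23.89, 28.71 and 18.88 (log2 fold change -1.34, SE 0.26, adjusted p = 0.000127). Ebf1 rose in the intron 9331 bp downstream of its start from 13.2, 26.03 and 25.29 to 53.52, 56.57 and 39.55 (log2 fold change 1.2, adjusted p = 0.00219), the window that was also higher at 24 h, although the call at 4 h was lost in 4 of 14 alternative fits (0.95 to 1.36), among them those without MSC control replicate 1 and without CK666 replicates 1 or 2. The Il7 intron window that fell at 24 h had a log2 fold change of 0.27 at 4 h (adjusted p = 0.345). For Cxcl12 there was no call at 4 h in MSCs by edgeR or DESeq2, with 6 of 29 windows at an unadjusted p under 0.05, beside 58588 of 306819 windows in all. Summed over all its windows, Cxcl12 nevertheless had 85.2 to 92.93 CPM with CK666 and 76.94 to 84.79 in MSC controls, without overlap. Total-count scaling gave 79.98 to 85.11 against 69.23 to 76.32. At 24 h the sum with CK666 was below the controls.

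**Figure D4:**
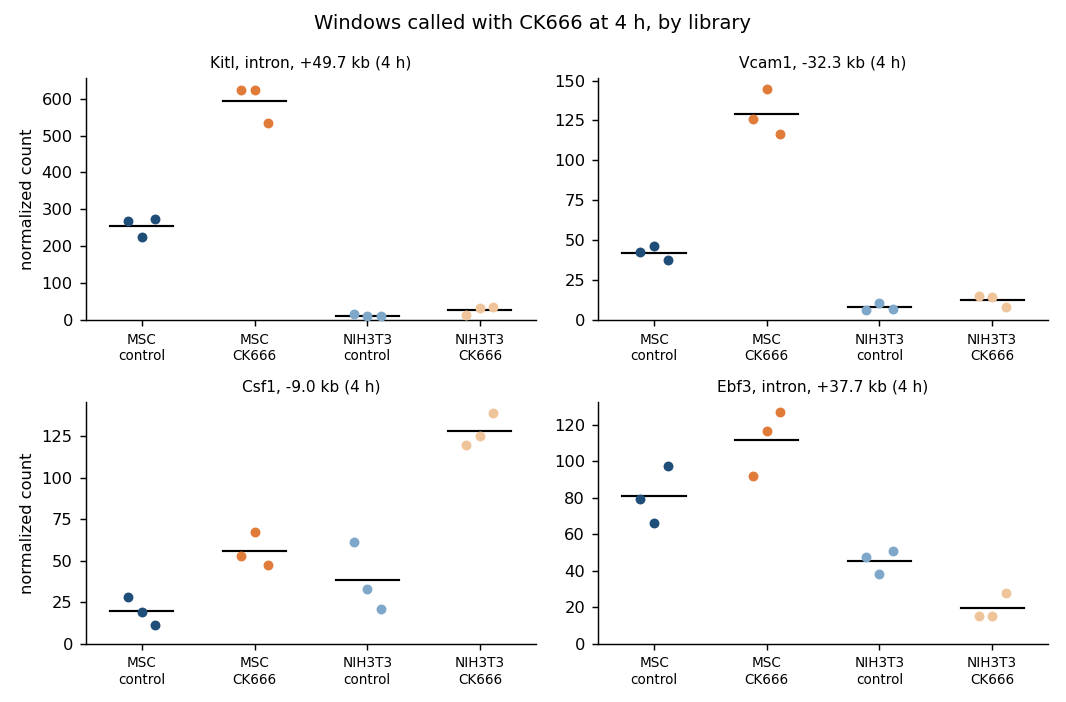
Normalized counts (vertical axis, from 0) of 4 windows called with CK666 at 4 h in at least 1 test, with 1 point per library and a line at each group's mean, for MSC and NIH3T3 cells without and with CK666. Kitl (533.9 to 624.0) and Vcam1 (116.8 to 144.4) are highest in MSCs with CK666 and near 0 in NIH3T3 cells, Csf1 rises in both cell types, and Ebf3 is higher with CK666 in MSCs on average and lower in NIH3T3 cells.

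In NIH3T3 cells, 5 of 274 member windows were called higher with CK666 (1.82%) and 8 lower (2.92%), against 1.87% and 1.67% of all windows. Of these 13, 7 were in Ebf3, of which 6 were lower. The median log2 fold change over the 54 Ebf3 windows tested was -0.58, and 42 of them were below 0. In MSCs the Ebf3 median was -0.08, with 35 of 54 windows below 0. Summed over the locus, Ebf3 went from 220.7, 215.7 and 225.3 CPM to 208.9, 206.8 and 203.9 in MSCs, without overlap. In NIH3T3 cells the sum fell from 201.4, 180.6 and 195.1 CPM to 119.9, 128.4 and 119.6. The Ebf3 promoter window went from 969.5, 705.9 and 828.9 normalized counts to 528.0, 559.0 and 501.4 (log2 fold change -0.63, SE 0.127, adjusted p = 0.000192), without overlap but within the fold limit. In the called windows, counts went from 97.17, 106.8 and 112.0 to 29.16, 52.72 and 30.03 at 12657 bp downstream of the start (log2 fold change -1.46, adjusted p = 1.83e-06), and from 109.0, 67.72 and 76.57 to 29.16, 31.85 and 35.03 at 20562 bp (-1.35, adjusted p = 4.09e-05). The surroundings moved the same way, since windows 50 kb to 5 Mb from Ebf3 had a median of -0.36 in NIH3T3 cells. With that median subtracted and the adjusted p of the test against 0 kept, 2 of the 6 lower calls of Ebf3 still passed the fold limit, at -1.12 and -1.1. The first of them (-1.48 as fitted) was lost in 5 of 14 alternative fits, DESeq2 and total counts among them, and the second in 0. DESeq2 called 3 Ebf3 windows in NIH3T3 cells, beside 7 by edgeR.

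**Figure D5:**
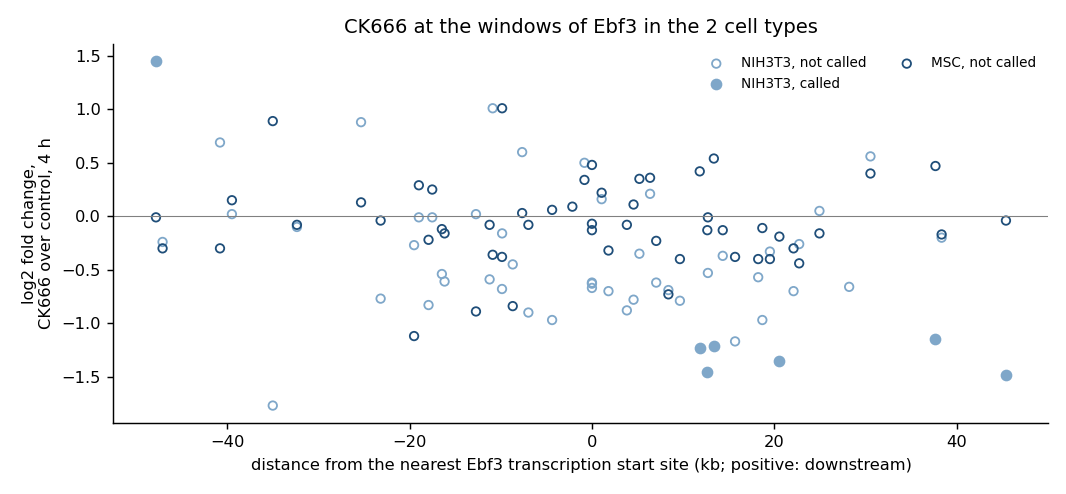
The log2 fold change of CK666 over control at 4 h (vertical axis) of each Ebf3 window against its distance from the nearest Ebf3 start in kb (horizontal axis, positive downstream), for MSC and NIH3T3 cells, with filled points for called windows. The NIH3T3 points lie mostly below 0 (42 of 54), and the MSC points scatter around a median of -0.08 (35 of 54 below 0) with no call.

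The other 6 calls in NIH3T3 cells were 2 in Kitl, 2 in Csf1, 1 in Ebf1 and 1 in Foxc1. Ebf1 rose 35464 bp upstream of its start from 15.12, 22.57 and 26.8 to 52.19, 102.1 and 74.06 (log2 fold change 1.84, SE 0.278, adjusted p = 8.24e-07), and the MSC libraries there had 72.08, 49.05 and 46.53 without and 70.72, 86.13 and 106.1 with CK666. Csf1 rose 16796 bp upstream of its start from 100.4, 103.3 and 74.65 to 202.6, 268.0 and 164.1 (log2 fold change 1.21, SE 0.173), a call lost without NIH3T3 CK666 replicate 2 (0.96). Kitl fell 17843 bp upstream of its start from 108.0, 99.85 and 103.4 to 38.37, 47.23 and 49.04 (log2 fold change -1.17, adjusted p = 4.15e-05). MSC libraries at that Kitl window had 134.0, 160.2 and 150.7 without and 133.8, 161.3 and 131.2 with CK666. The count of 13 was 7 by DESeq2 and 7 without NIH3T3 control replicate 3, and the split was 6 higher and 4 lower with total-count scaling, 5 and 5 with a GC trend removed, and 4 and 4 relative to the surroundings. Over all 331963 windows tested, total-count scaling gave 8022 higher and 3514 lower, and removal of the GC trend 7594 and 3879. Il7 had no call by edgeR or DESeq2 in NIH3T3 cells, where none of 12 windows had an unadjusted p under 0.05, beside 88198 of 331963 windows in all.

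The difference between the CK666 effects in the 2 cell types, tested as an interaction over all 12 libraries, was called in 8 of 318 member windows, 6 positive (1.89%) and 2 negative (0.629%), against 0.905% and 0.498% of all windows. Ebf3 held 4 of the positive ones, of which 2 still passed the fold limit with the surrounding median subtracted, at 1.35 and 1.31. In its intronic window 11826 bp downstream of the start, counts went from 87.3, 72.08 and 85.97 to 105.1, 119.1 and 106.1 in MSCs and from 46.42, 52.96 and 53.6 to 19.95, 17.57 and 26.02 in NIH3T3 cells (difference 1.68, SE 0.331, adjusted p = 0.000402). In the printed Ebf3 window they went from 79.18, 66.07 and 97.1 to 91.74, 116.5 and 126.7 in MSCs and from 47.5, 38.2 and 50.73 to 15.35, 15.38 and 28.02 in NIH3T3 cells (difference 1.63, SE 0.352, adjusted p = 0.00141). This window was also the Ebf3 call with CK666 in MSCs at 24 h. The Ebf3 promoter difference was 0.59 (adjusted p = 0.00661), within the fold limit. The count of 8 ranged from 3, without MSC control replicate 2, to 11 when single libraries were left out, and the split was 7 positive and 1 negative with DESeq2's size factors in edgeR and 7 positive without a negative one by DESeq2. Over all windows, edgeR with those factors gave 3990 positive and 1472 negative of 368794, and DESeq2 4263 and 1434 of 183413.

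Related genes were assigned windows by the same rule, from 3 lists. Of the receptors for the niche ligands, 30 of 147 windows were called higher in MSCs than in NIH3T3 cells (20.4%) and 15 lower (10.2%), beside 18.3% and 16.2% of all windows (median log2 fold change 0.33), with Kit at 5 higher and 1 lower of 9 and Cxcr4, the CXCL12 receptor, at 2 higher and 7 lower of 33. Of other niche factors, 78 of 256 windows were higher (30.5%) and 31 lower (12.1%, median 0.52), including Angpt1, a ligand of the TIE2 receptor, with 12 of 25 higher, and Spp1, which encodes osteopontin, with 16 higher and 3 lower of 30. Of other stromal genes, 48 of 159 were higher (30.2%) and 26 lower (16.4%, median 0.58). In that list Ebf2, a paralogue of Ebf1 and Ebf3, had 22 of 34 windows higher (median 2.34) and the pericyte receptor gene Pdgfrb 15 of 22 higher (median 1.45), while Prrx2, the paralogue of Prrx1, had 6 of 11 lower (median -1.54). With CK666 at 24 h the shares called higher were 1.7%, 2.2% and 2.6% in the 3 lists and those called lower 0.9%, 0.4% and 0.7%, beside 1.88% and 1.06% of all windows. With CytoD the shares higher were 0.9%, 0.7% and 0.7%, beside 0.98% of all windows, and those lower 0.9%, 3.0% and 0.7%, where other niche factors had 8 of 271 beside 1.4% of all windows. With CK666 at 4 h in MSCs, 1 of 131 receptor windows was called higher (0.8%) and 4 lower (3.1%, beside 0.427% of all windows), and all 4 lower ones were in Itgb1, an integrin subunit of the VCAM1 receptor. Other niche factors had 4 higher calls of 237 (1.7%) and other stromal genes 2 of 139 (1.4%) in MSCs, beside 0.59% of all windows. In NIH3T3 cells at 4 h the shares higher were 1.6%, 2.7% and 3.1%, beside 1.87% of all windows, and the calls lower were 3 of 226 windows of other niche factors (1.3%, beside 1.67%).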

How the data were processed

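The authors processed the ATAC-seq reads with PEPATAC, bowtie2 and MACS2, merged the peaks of replicates, and deposited raw read counts per window and library. Per the labels the build was mm10, and the sources used here do not name tool versions, read filters or the shift for transposase insertion. The windows were placed on GRCm38 with GENCODE vM21: 60.7% of protein-coding starts lay in a window at 24 h and 59.7% at 4 h, and 15.7% and 14.9% after a shift of 20000 bp. The 9 siRNA columns were not used here.

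Counts were analysed with R 4.3.3 and edgeR 4.0.16 (default filter on low counts, TMM scaling, quasi-likelihood test, Benjamini-Hochberg adjustment over all windows tested), with DESeq2 1.42.0 and limma 3.58.1 for alternatives, and with Python 3.11.15. The scripts were tested on simulated counts. Calls needed an adjusted p below 0.01 with a log2 fold change above 1 in size. A single fit held all 9 libraries at 24 h, another all 12 at 4 h for the comparison of cell types and for the interaction, and fits of 6 libraries per cell type served for CK666 at 4 h. Normalized counts are scaled to the mean library size of an experiment and are not compared between experiments. Windows were named if they held the most accessible start of a gene, were among its 3 largest calls of a comparison averaging 20 or more normalized counts, or were its most accessible window away from a start in MSC controls. Members and lists were chosen with earlier results of these data known.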

Additional observations from a re-analysis of the deposited data

Results flagged for a closer look

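The effect of CK666 at 4 h differed between MSCs and NIH3T3 cells in 8 windows of the niche genes by the interaction test of edgeR, and the difference is given as MSC minus NIH3T3 on the log2 scale.

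Ebf3 had 4 of them, of which the first 2 given here still passed the fold limit with the surrounding median subtracted (1.35 and 1.31). The adjusted p was not computed anew for these relative values. In the intron, the differences were 1.68 (11826 bp downstream of the start), 1.63 (37684 bp) and 1.18 (20562 bp, SE 0.277, adjusted p = 0.004). In the last of these Ebf3 windows, counts went from 185.8, 165.2 and 162.8 to 134.7, 161.3 and 153.7 in MSCs and from 109.0, 67.72 and 76.57 to 29.16, 31.85 and 35.03 in NIH3T3 cells. The fourth, at an alternative start of Ebf3 (chr7:137267413-137267974), had a difference of 1.12 (SE 0.23, adjusted p = 0.00073), with 98.47, 70.07 and 91.03 going to 137.6, 106.4 and 119.5 in MSCs and 213.8, 203.2 and 202.9 going to 132.0, 125.2 and 140.1 in NIH3T3 cells. The MSC libraries with CK666 were above their controls there and the NIH3T3 libraries below theirs, without overlap.

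Kitl had differences of 1.13 (SE 0.257, adjusted p = 0.00287) at 17843 bp upstream of its start and 1.24 (SE 0.317, adjusted p = 0.00951) at 49817 bp upstream. In the latter Kitl window, counts went from 12.18, 23.02 and 36.41 to 43.96, 47.29 and 37.75 in MSCs and from 179.2, 165.0 and 163.7 to 142.7, 130.7 and 115.1 in NIH3T3 cells, and the call was lost in 12 of 19 alternative fits.

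Csf1 had differences of -2.46 (SE 0.591, adjusted p = 0.00508) at 15366 bp downstream of its start and -1.14 (SE 0.281, adjusted p = 0.00628) at 40629 bp upstream. In the upstream Csf1 window, counts went from 120.8, 96.1 and 61.7 to 81.23, 79.37 and 35.05 in MSCs and from 154.4, 129.4 and 114.9 to 161.2, 252.6 and 199.2 in NIH3T3 cells, and the call was lost in 10 of 19 alternative fits.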

How the results depend on the processing

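Member windows called in the comparison of MSCs with NIH3T3 cells numbered 148, with CK666 at 24 h 19, with CytoD 10, with CK666 against CytoD 15, with CK666 at 4 h 7 in MSCs and 13 in NIH3T3 cells, and for the difference of its effects 8. In that order, a log2 fold change beyond 2 left 70, 1, 1, 2, 0, 0 and 1 (15.6%, 0.641%, 0.186%, 0.592%, 0.09%, 0.515% and 0.253% of all windows), and windows within 10 kb of a start 53, 7, 4, 6, 4, 1 and 1. The share called of all windows within 10 kb of a start was not counted, so the latter numbers cannot be read as many or few. An adjusted p under 0.05 with no fold limit gave 36, 35, 45, 28, 55 and 27 for the comparisons other than that of cell types, or 12.3%, 11.9%, 15.4%, 9.96%, 20.1% and 8.49% of members beside 9.5%, 9.88%, 11.6%, 7.37%, 13.2% and 4.67% of all windows. DESeq2 gave 6 for CytoD and 7 for CK666 in NIH3T3 cells, where values relative to the surroundings, an alternative chosen after seeing the data, gave 8. Leaving out single libraries gave 131 to 143, 14 to 19, 5 to 9, 14 to 17, 5 to 6, 7 to 13 and 3 to 11. For CytoD, 6 were left without control replicate 2 or 3 or CytoD replicate 1, and 5 without CytoD replicate 2. For the difference of effects, 3 were left without MSC control replicate 2, 4 without MSC control replicate 1 or MSC CK666 replicate 3, and 5 without MSC CK666 replicate 2 or NIH3T3 control replicate 3. The cause was not tested. Of 1306 values of named windows under alternatives, 1184 kept their direction and their side of the limits, 122 fell short of a limit, and none changed direction. These windows were picked as the largest calls of the same data, so a kept direction is no separate support. With single libraries left out, all 180 values for the cell types held. For CytoD 37 held and 23 fell short, for CK666 at 24 h 83 and 13, and for CK666 against CytoD 75 and 3. At 4 h the numbers for CK666 were 27 and 3 in MSCs, 36 and 18 in NIH3T3 cells, and 49 and 23 for the difference.

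Replicate numbers did not pair the libraries, since the correlations of same-numbered libraries' deviations were -0.072 to 0.027. With a replicate block the counts were 145, 19, 10, 15, 6, 13 and 7. Depth limits all comparisons, with library totals down to 14071301 at 24 h and 14496058 in NIH3T3 cells.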
